A study of Drosophila melanogaster with 12 samples.

Results

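Eye-antennal imaginal discs that overexpress winged eye (wge) were compared with and without a pair of mutant alleles of Su(var)3-9. The tested larvae carried ey-Gal4, UAS-wge and the alleles Su(var)3-9[1] and Su(var)3-9[2] over each other, and are called the allele pair here. The comparison larvae carried ey-Gal4 and UAS-wge alone and are called ey>wge. By genotype both groups carry the driver and the transgene, and the series holds no discs with the allele pair in the absence of winged eye. The members were the 6 arrays, 3 of each genotype, whose sample titles name these genotypes, out of 12 in the series. The other 6 arrays came from the driver line ey-Gal4 and the transgene line UAS-wge, 3 each, and are given below only as levels of the parental lines. Each array measured discs of wandering larvae of instar 3, dissected as 30 pairs and pooled, so a value is an average over many animals, over eye and antennal parts of the disc and over any tissue that came with them. Fewer cells of a type and less RNA per cell cannot be told apart in such a sample.

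Imaginal discs are the larval primordia of the adult body surface, and the eye-antennal disc normally forms the eye, the antenna and the head capsule. The driver ey-Gal4 uses an enhancer of eyeless that is active in the eye-antennal disc. Winged eye encodes a chromatin protein with a BAH domain, and the title of the series describes transdetermination, the switch of a disc to the fate of another disc, after its overexpression. Su(var)3-9 encodes a histone methyltransferase of histone H3 lysine 9, the mark bound by heterochromatin protein HP1, and its name stands for suppression of position-effect variegation, the patchy silencing of a gene placed next to heterochromatin. The comparison asks how the disc transcriptome under winged eye overexpression differs when both copies of Su(var)3-9 are mutant alleles.

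The targeted gene could not be checked. Su(var)3-9 shares its first exons with eIF2gamma, and neither has a probe set assigned to it alone here. The transgenic gene was measured. Signals of wge were 875, 672 and 443 in allele-pair replicates 1, 2 and 3, against 925, 1115 and 1162 on the ey>wge arrays. The groups did not overlap, and the change of -0.72 ± 0.19 (log2, SE) had an adjusted p of 0.0492. In replicate 1 the change was -0.27. Limma no longer called wge after quantile normalization (adjusted p = 0.0792) or with a trend of signal on gene span removed (0.100). It was not called without allele-pair replicate 2 (0.128) or 3 (0.190) either, and was called without replicate 1 (0.00121). In the parental lines wge averaged 846 ± 93 (ey-Gal4) and 853 ± 69 (UAS-wge; SD, n = 3), beside 663 ± 216 in the allele pair and 1067 ± 126 in ey>wge. The mean wge signal of the allele-pair discs was thus below both parental means. Replicates 2 and 3 lay below both, and replicate 1 (875) just above both. The mean, lowered by replicates 2 and 3, goes against a label of overexpression as far as this probe set measures it. The groups are called by their labels throughout. Eyeless (ey), the Pax6 gene of the eye field and the source of the driver's enhancer, had signals of 332, 330 and 213 in the allele pair, against 565, 472 and 343 in ey>wge, with a change of -0.63 ± 0.19 and an adjusted p of 0.0832. Markers of the labelled tissue were present: the eye genes eya, dac and so had signals of 1142, 2112 and 523 and the antennal gene Dll one of 1870 on the first allele-pair array, next to 1289, 1669, 626 and 1469 on the first ey>wge array.

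The 3 allele-pair arrays were not alike. Replicates 2 and 3 had median signals of 33.2 and 34.2 and replicate 1 one of 44.6, while the ey>wge arrays lay between 39.4 and 41.5. On the first principal component of all 12 arrays, with 22.03% of the variance, replicates 1, 2 and 3 lay at 18.2, 53.6 and 70.7, against -2.7, -1.9 and 2.8 in ey>wge. Relative to the ey>wge mean, signal fell with the genomic span of the gene in replicates 2 and 3 (Spearman correlations of -0.240 and -0.325 across 13544 probe sets, which are not independent replicates) and hardly in replicate 1 (-0.031). The median SD within a genotype of log2 signal was 0.367 for the allele pair and 0.266 for ey>wge. Replicate 1 stood apart in another way: the spiked hybridization control bioB read 67.1 with its 3-prime probe set, below the 438 to 753 of the other 11 arrays (bioC read 1242 there and 1295 to 2022 on the others). Ratios of 3-prime to 5-prime actin signal, a sign of RNA length, were 5.17, 5.25 and 5.25 in the allele pair, within the range of the other groups. Such ratios for eIF4a (13.4, 12.3 and 15.1) were within it too. For GAPDH they were 2.70, 2.31 and 2.09, and replicate 3 lay below the lowest array of the other groups (2.29). Most genes below are therefore given by replicate, in the order 1, 2 and 3, and the counts that lead are repeated with replicate 1 as the lone allele-pair array, without it, and with each array's trend on gene span removed.

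At an adjusted p under 0.05, 691 of 18769 probe sets (3.68%) differed, of which 218 (1.16%) were higher and 473 (2.52%) lower in the allele pair. A change of at least 2-fold was reached by 66 probe sets among the higher and 245 among the lower. All 218 lay above the ey>wge mean in each of the 3 allele-pair replicates and all 473 below it, which a choice by these same arrays favours. The size differed: the median change of the higher ones was 0.52, 0.81 and 0.94 in replicates 1, 2 and 3, and that of the lower ones -0.60, -1.12 and -1.27. The median over all probe sets was -0.05. The signals of the 2 groups did not overlap for 674 of the 691, and for 18.9% of all probe sets. With replicate 1 as the only allele-pair array 60 probe sets were higher and 81 lower. Without replicate 1 there were 998 higher and 1642 lower, and leaving out replicate 2 or 3 left 63 or 87 higher and 155 or 195 lower. Leaving out ey>wge replicate 1, 2 or 3 left 66, 81 or 84 higher and 142, 195 or 185 lower. The share of lower probe sets among those called was 68.5%, and 55.6% (266 of 478) once the span trend was removed.

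**Figure D1:**
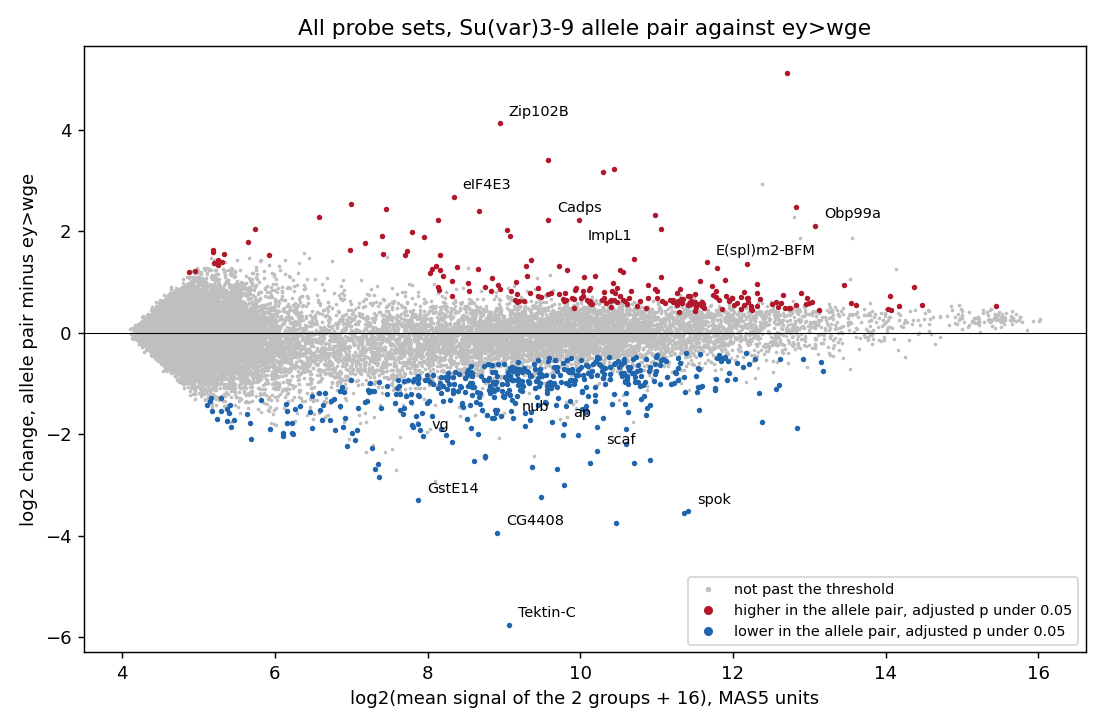
Log2 change of every probe set (allele pair minus ey>wge, vertical axis) against the log2 mean signal of the 2 groups plus a pseudocount of 16 (horizontal axis). Grey points did not pass the threshold, red ones (218) were higher and blue ones (473) lower in the allele pair at an adjusted p under 0.05. Zip102B (4.13) and Tektin-C (-5.75) lie farthest from 0 among the named genes.

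Several genes of wing and thorax identity fell in the allele pair. Of 27 measured genes of wing identity and patterning, 9 were lower and 1 was higher in the allele pair, against 2.82% lower and 1.45% higher (4.27% in all) over all 11982 genes, and the list's median was -0.16 beside -0.05 for all genes. The 4 most reduced were vg, Dr, ap and nub, which in the normal fly build the wing and are low in the eye disc. Of 6 measured genes of a Hox list 2 passed, Antp and tsh, and both were lower.

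Antp, a Hox gene active in the thorax, had signals of 112, 181 and 67.6 in the allele pair, against 963, 476 and 684 in ey>wge. The change was -2.44 ± 0.42 (adjusted p = 0.00423), and a second Antp probe set gave -2.52 ± 0.43 (adjusted p = 0.00408), while the third, at signals near background in both groups, was not called (adjusted p = 0.583). Every allele-pair array lay below every ey>wge array, and still above the parental means of 39.2 ± 12.9 (ey-Gal4) and 19.9 ± 15.6 (UAS-wge; SD, n = 3). Teashirt (tsh), a zinc-finger gene of the trunk and of proximal disc regions, had signals of 1321, 1195 and 797 in the allele pair, against 1956, 2076 and 1936 in ey>wge (-0.87 ± 0.16, adjusted p = 0.00622). The remaining 4 measured genes of the Hox list were Dfd, Scr, pb and tio, with changes of 0.02, -0.58, 0.30 and -0.50, none of which passed the threshold.

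Vestigial (vg), the wing selector that acts with Scalloped, had signals of 88.8, 100.3 and 52.5 in the allele pair, against 330, 321 and 481 in ey>wge (-2.04 ± 0.36, adjusted p = 0.00485). Its levels in the parental lines were 30.4 ± 15.4 (ey-Gal4) and 42.2 ± 8.9 (UAS-wge; SD, n = 3). Drop (Dr), a homeobox gene, measured 124, 228 and 94.9 in the allele pair, against 693, 401 and 780 in ey>wge (-1.99 ± 0.31, adjusted p = 0.00197). For both genes the groups were separate, with replicate 2 the highest of the allele-pair arrays.

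Apterous (ap), the LIM-homeodomain selector of the dorsal wing compartment, gave 411, 489 and 259 in the allele pair and 1356, 1368 and 1314 in ey>wge (-1.80 ± 0.25, adjusted p = 0.000692). A second ap probe set gave -1.52 ± 0.37 (adjusted p = 0.0307). Nubbin (nub), a POU-domain gene of the wing pouch, had signals of 224, 282 and 239 in the allele pair, against 868, 806 and 826 in ey>wge (-1.69 ± 0.23, adjusted p = 0.000515). The allele-pair arrays lay close together for nub, and the parental lines averaged 198 ± 39 (ey-Gal4) and 126 ± 43 (UAS-wge; SD, n = 3). With replicate 1 as the lone allele-pair array, nub (adjusted p = 0.0118), ap (0.0198) and Dr (0.0126) still passed. In that fit vg (-1.88 ± 0.49, adjusted p = 0.118) and Antp (-2.45 ± 0.56, adjusted p = 0.0687) did not, at changes about as large as in the full comparison and larger SEs.

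Other wing patterning genes fell less. Dachsous (ds), the protocadherin ligand of Fat, had signals of 2055, 868 and 417 in the allele pair, against 3191, 2540 and 2081 in ey>wge (-1.48 ± 0.36, adjusted p = 0.0297). Its change was -0.32 in replicate 1 and -1.55 and -2.58 in replicates 2 and 3. Egfr, the receptor of the EGF pathway, measured 684, 415 and 318 in the allele pair, against 1025, 905 and 1104 in ey>wge (-1.14 ± 0.21, adjusted p = 0.00558). Four-jointed (fj), a kinase that acts on Fat and Dachsous, measured 1956, 1293 and 1279 in the allele pair, against 2651, 2517 and 2392 in ey>wge (-0.76 ± 0.14, adjusted p = 0.00748). For ds, Egfr and fj replicate 1 was the nearest to ey>wge. The zinc-finger gene salr measured 223, 191 and 212 in the allele pair, against 349, 324 and 457 in ey>wge (-0.79 ± 0.20, adjusted p = 0.0399), with much the same fall in all 3 replicates. Its relative salm measured 984, 847 and 535 in the allele pair, against 1337, 1179 and 1189 in ey>wge (-0.68 ± 0.18, adjusted p = 0.0440). Lim1, a LIM-homeodomain gene of the distal antenna and leg that the wing list also holds, was the 1 higher member: its signals were 2553, 2221 and 2199 in the allele pair, against 1211, 1719 and 1410 in ey>wge (0.69 ± 0.15, adjusted p = 0.0186). A dimmer Lim1 probe set did not pass (0.31 ± 0.30).

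The 17 other wing genes did not pass. Among them ct, a homeobox gene of the wing margin, changed by -0.58 ± 0.19 (adjusted p = 0.101) and Dll, a homeobox gene of distal appendages, by 0.19 ± 0.14 (adjusted p = 0.551). The count of lower wing genes was 3 with replicate 1 alone (0.517% of all genes were lower in that fit), 13 without replicate 1 (10.4% of all genes) and 7 with the span trend removed (1.91% of all genes). The median of the list was -0.16, -0.02 after quantile normalization and 0.07 with the span trend removed, so the sign of the whole list's median turned when the span trend was removed. The wing genes are long, with a median span of 23622 bp beside 2569 bp for all single-gene probe sets, and the part of span in their change was not tested beyond that fit.

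**Figure D2:**
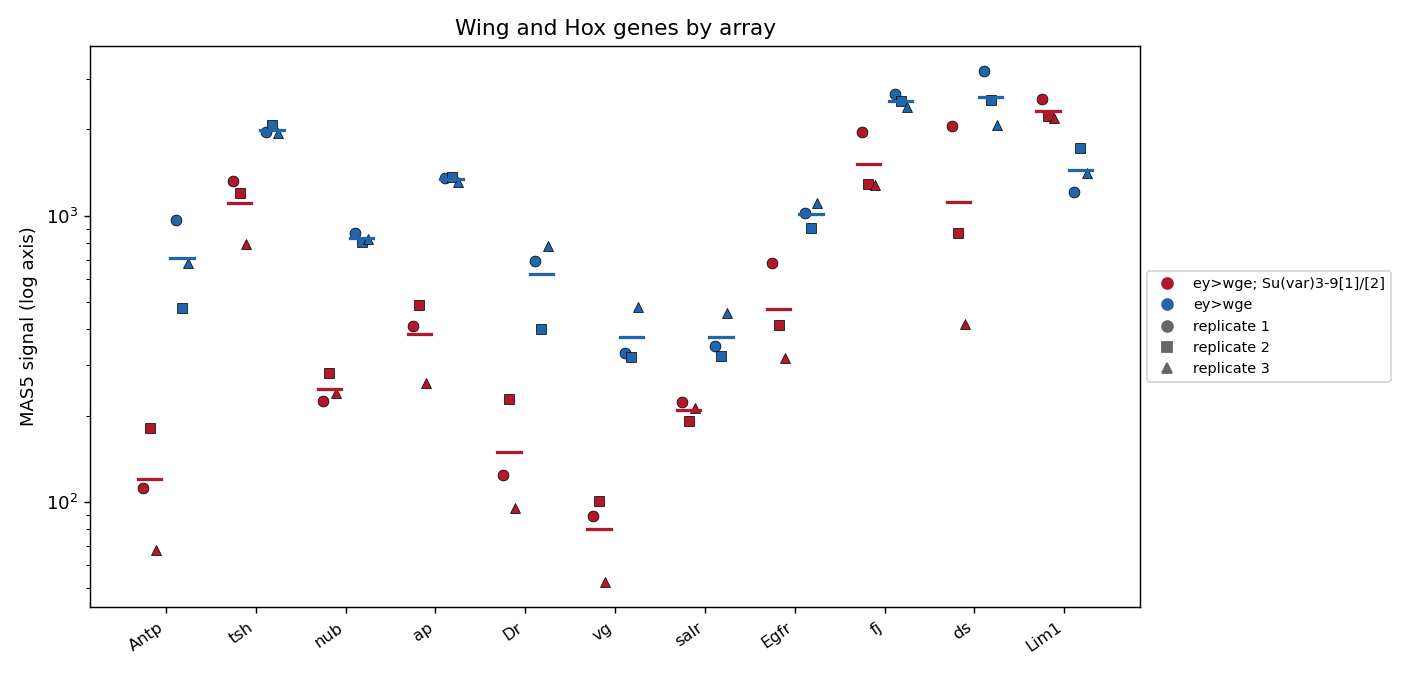
Signal on each array (log axis, MAS5 units) of 11 wing and Hox genes in the allele pair (red, left of each pair) and ey>wge (blue, right), with the group mean as a bar and the replicate as the symbol. For Antp, nub, ap, Dr and vg all 3 allele-pair symbols lie well below the ey>wge ones, and for ds replicate 1 (2055) lies far above replicates 2 and 3.

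Lists of neighbouring fates held fewer calls, to be read beside 2.82% lower and 1.45% higher over all genes. Of 13 notum and hinge genes 3 were lower and none higher: tsh as above, the GATA gene grn (305, 339 and 333 in the allele pair, against 541, 670 and 592 in ey>wge, change -0.85 ± 0.21, adjusted p = 0.0322) and the Iroquois gene mirr. The called mirr probe set measured 337, 425 and 467 in the allele pair, against 659, 609 and 719 in ey>wge (-0.68 ± 0.18, adjusted p = 0.0478), while a second of similar brightness averaged 369 in the allele pair and 346 in ey>wge and did not pass (0.06 ± 0.20, adjusted p = 0.925). Of 18 leg genes 2 were higher and 3 lower, and of 14 antennal genes 1 was higher and 2 lower. Those 5 leg calls were Lim1 and drm (5563, 5861 and 5592 in the allele pair, against 3696, 4286 and 3822 in ey>wge, change 0.53 ± 0.13, adjusted p = 0.0335), which were higher, and ap, tsh and the Bar homeobox gene B-H1, which were lower. B-H1 measured 447, 563 and 472 in the allele pair and 1038, 708 and 881 in ey>wge (-0.80 ± 0.17, adjusted p = 0.0180).

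Of 12 retinal determination genes none was higher and 2 were lower, toy and tsh, against 1.45% higher and 2.82% lower over all genes. Twin of eyeless (toy), the second Pax6 gene, had signals of 2301, 1976 and 1764 in the allele pair, against 3295, 2971 and 2836 in ey>wge (-0.59 ± 0.12, adjusted p = 0.00970). Both groups lay far below the parental means of 7714 ± 432 (ey-Gal4) and 9135 ± 374 (UAS-wge; SD, n = 3). The homeobox gene so measured 523, 335 and 333 in the allele pair and 626, 463 and 501 in ey>wge, and did not pass (-0.42 ± 0.17, adjusted p = 0.1997).

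Of 24 photoreceptor and neuronal differentiation genes 6 were lower and none was higher, against 2.82% lower and 1.45% higher over all genes. Chaoptin (chp), an adhesion protein of photoreceptors, had signals of 128, 77.8 and 67.3 in the allele pair, against 346, 350 and 341 in ey>wge (-1.80 ± 0.22, adjusted p = 0.000189). Futsch, a microtubule-associated protein of neurons, gave 140, 74.2 and 47.2 in the allele pair and 320, 364 and 292 in ey>wge (-1.82 ± 0.24, adjusted p = 0.000400). Both genes were lowest in replicate 3, and neither overlapped between the groups. Appl, the fly homologue of the amyloid precursor protein, measured 507, 307 and 124 in the allele pair, against 1095, 1101 and 657 in ey>wge (-1.71 ± 0.32, adjusted p = 0.00643). The sodium pump subunit nrv3 measured 307, 306 and 126 in the allele pair, against 497, 519 and 410 in ey>wge (-0.996 ± 0.24, adjusted p = 0.0301). The RNA-binding protein gene cpo measured 925, 525 and 169 in the allele pair, against 1253, 959 and 1493 in ey>wge (-1.44 ± 0.36, adjusted p = 0.0362). B-H1 was the other, and for Appl, nrv3 and cpo replicate 3 was far below the others. Only chp and futsch also passed with replicate 1 alone, and 4 members of the list were lower with the span trend removed, when 1.91% of all genes were.

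The Enhancer of split (E(spl)) complex encodes basic helix-loop-helix (HLH) repressors and small proteins of the Bearded family (BFM) that are switched on by Notch, and a further cluster around Brd encodes more Bearded family proteins. Of 13 measured genes of both clusters 7 were higher (1.45% of all genes were) and 1, Brd, was lower. The list's median was 0.74, beside -0.05 for all genes, and it was 0.74, 0.47 and 0.52 in replicates 1, 2 and 3. The genes are short, with a median span of 963 bp.

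E(spl)m2-BFM had signals of 5868, 4497 and 3661 in the allele pair, against 2022, 1394 and 1863 in ey>wge (1.39 ± 0.16, adjusted p = 0.000140). E(spl)malpha-BFM gave 4850, 8080 and 7127 in the allele pair and 3116, 2101 and 2518 in ey>wge (1.36 ± 0.21, adjusted p = 0.00161). Neither gene overlapped between the groups, and replicate 1 was the highest array for m2 and the lowest of its group for malpha. In the parental lines m2 averaged 3198 ± 300 (ey-Gal4) and 2340 ± 140 (UAS-wge; SD, n = 3), between the allele pair and ey>wge.

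Of the HLH genes, E(spl)m5-HLH was the most changed, with signals of 261, 385 and 518 in the allele pair, against 246, 151 and 117 in ey>wge (1.12 ± 0.27, adjusted p = 0.0317). E(spl)m7-HLH measured 4302, 4584 and 3276 in the allele pair and 2349, 1661 and 1995 in ey>wge (1.01 ± 0.15, adjusted p = 0.00126). E(spl)m3-HLH measured 8680, 6429 and 5275 in the allele pair, against 3612, 3276 and 3348 in ey>wge (0.96 ± 0.14, adjusted p = 0.00138). The groups were separate for all 3. E(spl)mbeta-HLH (0.79 ± 0.19, adjusted p = 0.0326) and E(spl)mdelta-HLH (0.51 ± 0.13, adjusted p = 0.0325) were higher by less.

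Brd itself went the other way, with signals of 1010, 938 and 1038 in the allele pair, against 1628, 1367 and 1239 in ey>wge (-0.49 ± 0.13, adjusted p = 0.0389), and it was not called after quantile normalization or median centring. E(spl)m4-BFM did not pass (0.74 ± 0.21, adjusted p = 0.0616), and its signal was 1907, 3710 and 4005 in the allele pair and 2267, 1700 and 1576 in ey>wge. Tom, of the Brd cluster, changed by 0.29 ± 0.12 (adjusted p = 0.222). The number of higher members was 5 with replicate 1 alone, when 0.284% of all genes were higher, 9 without replicate 1 (7.06% of all genes), and 5 with the span trend removed (1.63%). E(spl)m2-BFM, E(spl)m3-HLH and E(spl)m7-HLH passed in all of these fits.

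**Figure D3:**
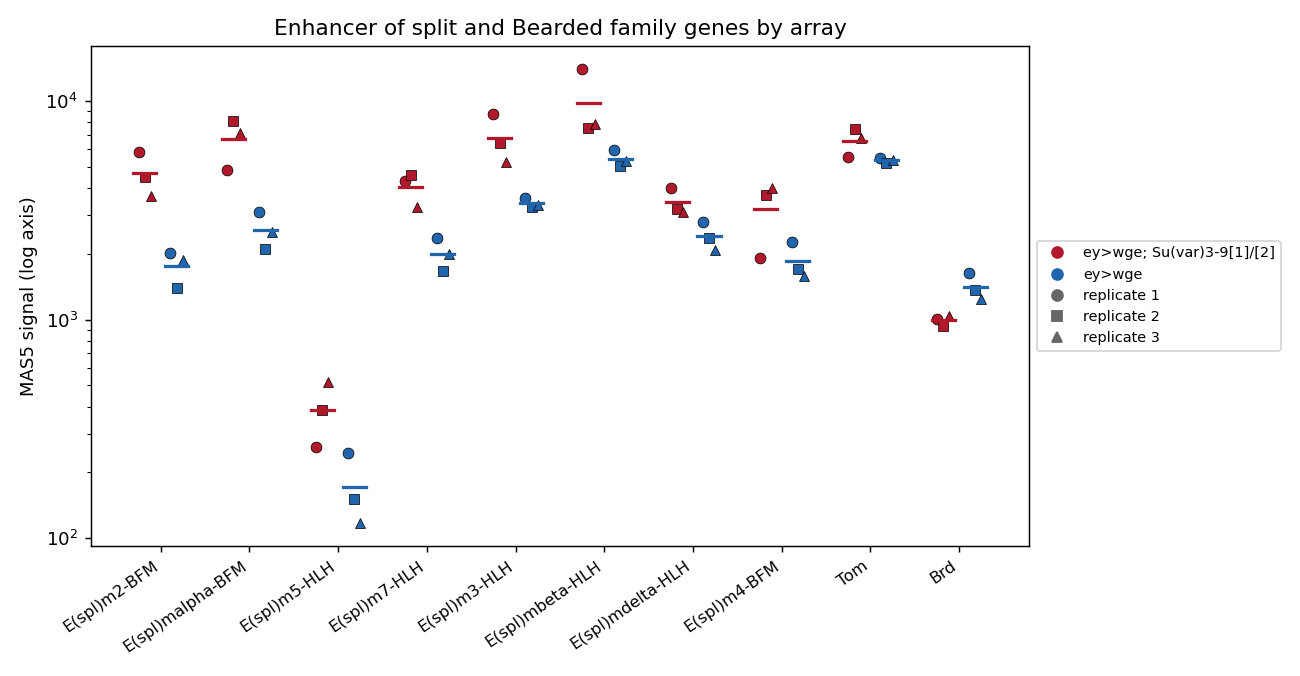
Signal on each array (log axis, MAS5 units) of 10 genes of the Enhancer of split and Bearded families in the allele pair (red, left of each pair) and ey>wge (blue, right), with bars for the means. The allele pair is above ey>wge without overlap for the first 7 genes, overlaps it for E(spl)m4-BFM, and lies below it for Brd.

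The genes of the Notch pathway itself gave no call when 1 probe set stood for each. Of 16 ligands, modifiers and cofactors 0 passed in either direction, and their median was -0.09. An unadjusted p under 0.05 (limma) was reached by 5 of the 16 on this list, beside 3408 of all 18769 probe sets. By symbol matching that list also holds Notum, a gene of the Wnt pathway. The probe set that stood for Delta, a Notch ligand, measured 4943, 3499 and 3338 in the allele pair, against 4393, 3626 and 4238 in ey>wge (-0.07 ± 0.14, adjusted p = 0.851). A second Delta probe set was lower, with signals of 3034, 2214 and 1637 in the allele pair, against 4297, 3508 and 3177 in ey>wge (-0.70 ± 0.18, adjusted p = 0.0384). Its groups did not overlap, so the Delta probe sets disagreed. Of 14 proneural genes, some of them repressed by E(spl) proteins, 1 was higher (1.45% of all genes were). Achaete (ac) had signals of 1006, 1520 and 1732 in the allele pair, against 781, 804 and 706 in ey>wge (0.85 ± 0.17, adjusted p = 0.0115).

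The remaining pathways each held few calls, and all of these were lower, when 2.82% of all genes were. Egfr was the call among 12 EGF pathway genes, and fj and ds were those among 11 Hippo genes. Among 12 Dpp genes the zinc-finger gene shn measured 4676, 2345 and 2035 in the allele pair, against 4805, 5412 and 4422 in ey>wge (-0.78 ± 0.21, adjusted p = 0.0492), and replicate 1 overlapped ey>wge. Among 6 Wingless genes Axn, a scaffold of the complex that degrades beta-catenin, measured 1310, 1252 and 920 in the allele pair, against 1590, 1771 and 1717 in ey>wge (-0.55 ± 0.15, adjusted p = 0.0449). Among 7 JAK/STAT genes chinmo, a BTB zinc-finger gene, measured 1036, 361 and 411 in the allele pair, against 1181, 1520 and 1861 in ey>wge (-1.45 ± 0.36, adjusted p = 0.0334). The changes of shn and chinmo were -0.06 and -0.52 in replicate 1, and at least -1.05 in size in the other 2.

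Of 18 genes of JNK signalling and disc damage 3 were lower and none higher, against 2.82% lower and 1.45% higher over all genes. Scarface (scaf), a protease homologue, had signals of 650, 331 and 236 in the allele pair, against 2305, 1692 and 1843 in ey>wge (-2.33 ± 0.26, adjusted p = 0.000101). Its parental means were 4995 ± 571 (ey-Gal4) and 5624 ± 1494 (UAS-wge; SD, n = 3), above both winged eye groups. The regeneration gene rgn measured 2002, 1497 and 1268 in the allele pair, against 2916, 2921 and 2778 in ey>wge (-0.87 ± 0.17, adjusted p = 0.00833). It differed widely between the parental lines, with means of 5903 ± 974 (ey-Gal4) and 84.3 ± 15.5 (UAS-wge; SD, n = 3). For rgn the alleles and the strain background cannot be told apart. The matrix metalloprotease gene Mmp2 measured 185, 137 and 121 in the allele pair, against 242, 353 and 275 in ey>wge (-0.91 ± 0.20, adjusted p = 0.0192). All 3 genes had separate groups, with replicate 3 the lowest. The relaxin-like damage signal Ilp8 had signals of 505, 415 and 341 in the allele pair and 928, 718 and 480 in ey>wge and did not pass (-0.70 ± 0.37, adjusted p = 0.339). Both groups lay above the parental means of 22.3 ± 19.8 (ey-Gal4) and 7.4 ± 4.8 (UAS-wge; SD, n = 3).

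Su(var)3-9 works in heterochromatin, so the factors of heterochromatin and the genes that lie in it or next to it were looked at as lists. Of 29 measured heterochromatin factors 2 were higher and 4 lower, against 1.45% higher and 2.82% lower over all genes, and their median was -0.03. The higher ones were HP4 and HP1c. HP4, a partner of HP1, had signals of 4788, 6782 and 7756 in the allele pair, against 3980, 3902 and 3208 in ey>wge (0.78 ± 0.16, adjusted p = 0.0106). HP1c, a member of the HP1 family, gave 1631, 1952 and 2271 in the allele pair and 1262, 1219 and 1133 in ey>wge (0.68 ± 0.14, adjusted p = 0.0108). For both the groups were separate, and replicate 1 was the nearest to ey>wge.

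The lower ones were wge, Su(var)2-HP2, ADD1 and Set2. Su(var)2-HP2, which binds HP1, measured 747, 352 and 250 in the allele pair and 992, 780 and 874 in ey>wge (-1.09 ± 0.27, adjusted p = 0.0320). The ADD1 probe set called measured 694, 440 and 333 in the allele pair and 965, 1158 and 853 in ey>wge (-1.05 ± 0.25, adjusted p = 0.0297). A second ADD1 probe set averaged 434 in the allele pair and 282 in ey>wge and did not pass (0.58 ± 0.18, adjusted p = 0.0782), so the direction of ADD1 differed between its probe sets. The histone H3 lysine 36 methyltransferase gene Set2 measured 617, 329 and 439 in the allele pair and 728, 737 and 744 in ey>wge (-0.70 ± 0.18, adjusted p = 0.0408). The gene of HP1 itself (HP1a) measured 12883, 14876 and 17767 in the allele pair, against 11769, 11624 and 12074 in ey>wge, and did not pass (0.35 ± 0.12, adjusted p = 0.118), and HP1b did not either (0.54 ± 0.19, adjusted p = 0.124). In replicate 1 the changes of HP4 and HP1c were 0.38 and 0.43. Those of Su(var)2-HP2, ADD1 and Set2 were -0.23, -0.49 and -0.25 there. Without replicate 2 no factor of this list passed, when 0.309% of all genes were higher and 0.901% lower. Without replicate 1 there were 6 higher and 9 lower, when 7.06% of all genes were higher and 10.4% lower. After quantile normalization 2 were higher and none lower. Leaving out ey>wge replicate 1, 2 or 3 left 2, 2 or 0 higher and none lower.

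Of 18 genes in pericentric heterochromatin 1 was higher and 1 lower, against 1.45% higher and 2.82% lower over all genes. Haspin, a histone H3 kinase, measured 1384, 1949 and 2251 in the allele pair and 1182, 1311 and 1076 in ey>wge (0.62 ± 0.17, adjusted p = 0.0491). CG40006, a gene of the CD36 scavenger receptor family, measured 113, 154 and 105 in the allele pair and 388, 303 and 262 in ey>wge (-1.25 ± 0.25, adjusted p = 0.0104). The other 16 gave no call, and the median was -0.14.

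Of 15 Polycomb group genes 2 were lower, when 2.82% of all genes were. These were Pcl and Jarid2, whose proteins associate with the complex that methylates histone H3 lysine 27. Pcl measured 909, 572 and 556 in the allele pair, against 989, 1308 and 1085 in ey>wge (-0.75 ± 0.17, adjusted p = 0.0223). Jarid2 measured 2056, 1285 and 970 in the allele pair, against 2200, 2571 and 2244 in ey>wge (-0.76 ± 0.19, adjusted p = 0.0312). Replicate 1 was close to ey>wge for both. Of 22 Trithorax group and remodelling genes 2 were lower (2.82% of all genes were), the demethylase gene Kdm5 and the CHD remodeller gene kis. Kdm5 measured 2400, 1683 and 1648 in the allele pair, against 3256, 2753 and 3138 in ey>wge (-0.69 ± 0.16, adjusted p = 0.0243). Kismet (kis) measured 7707, 2729 and 2256 in the allele pair, against 8365, 7690 and 7516 in ey>wge (-1.11 ± 0.29, adjusted p = 0.0397), with only replicates 2 and 3 far below. Among 13 histone variant and chaperone genes 1, His2Av, was higher (1.45% of all genes were). Its signals were 18179, 19724 and 21507 in the allele pair, against 15926, 13636 and 14063 in ey>wge (0.45 ± 0.11, adjusted p = 0.0382).

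Chromosome 4, a small chromosome rich in heterochromatin, held a larger share of calls than the long arms. Of its 82 single-gene probe sets 13 (15.9%) were called, in 11 of 65 genes, with 4 higher and 9 lower, while 4.19% of the other single-gene probe sets and 4.26% of all of them were. The arms 2L, 2R, 3L, 3R and X held 3.61%, 4.43%, 4.73%, 4.20% and 4.07%. This difference between chromosomes was not tested. The median change on chromosome 4 was -0.22, and 55 of the 82 were negative. For a list of 42 of its genes the median was 0.005, -0.22 and -0.52 in replicates 1, 2 and 3. These genes are long, with a median span of 11677.5 bp beside 2569 bp for all single-gene probe sets. The part of span in their change was not tested beyond the fit with its trend removed.

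The 3 higher genes of chromosome 4 were among the most changed of all. Zip102B, named for the ZIP family of metal ion transporters, had signals of 876, 764 and 1095 in the allele pair, against 68.4, 14.1 and 40.8 in ey>wge (4.13 ± 0.37, adjusted p = 8.4e-06). Its parental means were 73.1 ± 16.3 (ey-Gal4) and 32.6 ± 13.5 (UAS-wge; SD, n = 3), so the 3 allele-pair arrays stood above all other groups. Cadps, a priming factor of dense-core vesicles, gave 1840, 1059 and 862 in the allele pair and 169, 296 and 280 in ey>wge (2.23 ± 0.28, adjusted p = 0.000302). Rnf11, a RING finger protein, gave 457, 344 and 325 in the allele pair and 87.1, 66.6 and 117 in ey>wge (1.89 ± 0.28, adjusted p = 0.00138), and a second Rnf11 probe set changed by 1.44 ± 0.26. Replicate 1 shared all of these rises.

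The lower genes of chromosome 4 included CG33978, with signals of 648, 370 and 220 in the allele pair, against 1457, 1535 and 1712 in ey>wge (-2.01 ± 0.26, adjusted p = 0.000302), and the muscle protein gene bt, described below. PMCA, a plasma membrane calcium pump, measured 699, 691 and 568 in the allele pair and 1246, 1257 and 1287 in ey>wge with 1 of its probe sets (-0.94 ± 0.13, adjusted p = 0.000466). Its other probe sets did not pass, at changes of -0.37 ± 0.17 and 0.24 ± 0.21. Smaller falls were those of toy, CG31998, PlexB, Ank and Eph. Of the list of 42 chromosome 4 genes 2 were higher and 4 lower in the full comparison, against 1.45% higher and 2.82% lower over all genes. With the span trend removed 4 were higher and 1 lower, when 1.63% of all genes were higher and 1.91% lower. In replicate 1 the list's median was 0.005. Outside the probe sets that this list counts, those of CG33978 and PMCA first given above changed by -1.25 and -0.84 in replicate 1.

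Genes close to Su(var)3-9 can be carried along with mutant alleles, so the 50 genes on each side of it in gene order were counted. Of these 100 genes 10 (10%) had a called probe set, against 4.57% of genes on 3R and 4.65% of all genes, and 9 of the 10 were lower. The adjacent gene Set, a histone chaperone, had signals of 5767, 5938 and 7403 in the allele pair, against 8849, 10188 and 8337 in ey>wge (-0.52 ± 0.13, adjusted p = 0.0326). The higher gene was CG4210, with signals of 989, 1168 and 1567 in the allele pair, against 670, 774 and 595 in ey>wge (0.84 ± 0.20). The others were Sdr, CG42788, Mf, CG6654, tefu, Tm2, ea and CG6171, of which Mf and Tm2 encode muscle proteins. Whether the mutant alleles or the chromosome that carries them changed these genes cannot be told apart.

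Some of the most changed genes also differed between the parental lines. Tektin-C, a tektin of cilia and sperm tails, had signals of 2.6, 2.0 and 6.5 in the allele pair, against 1077, 1047 and 994 in ey>wge (-5.75 ± 0.28, adjusted p = 2.0e-09), and parental means of 2079 ± 85 (ey-Gal4) and 9.7 ± 11.4 (UAS-wge; SD, n = 3). CG4408 measured 114, 5.7 and 41.2 in the allele pair and 658, 1347 and 619 in ey>wge (-3.94 ± 0.53, adjusted p = 0.000422), and 823 ± 618 (ey-Gal4) and 74.3 ± 3.0 (UAS-wge; SD, n = 3) in the parental lines. Jhbp7, of the juvenile hormone binding protein family, measured 235, 61.1 and 102 in the allele pair and 774, 749 and 566 in ey>wge (-2.42 ± 0.33, adjusted p = 0.000529), and 694 ± 202 (ey-Gal4) and 233 ± 63 (UAS-wge; SD, n = 3) in the parental lines. Allele-pair discs thus had Tektin-C at the level of the UAS-wge line, and for such genes the alleles and the strain background cannot be told apart.

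Others differed from both parental lines. eIF4E3, a cap-binding translation factor, had signals of 390, 725 and 524 in the allele pair, against 73.7, 54.3 and 81.7 in ey>wge (2.68 ± 0.41, adjusted p = 0.00141), with parental means of 17.2 ± 11.7 (ey-Gal4) and 28.3 ± 16.7 (UAS-wge; SD, n = 3). The calcium channel subunit gene cac gave 695, 255 and 113 in the allele pair and 66.8, 49.5 and 59.0 in ey>wge (1.98 ± 0.46, adjusted p = 0.0229), and its rise was 3.26 in replicate 1 and 0.80 in replicate 3. Replicate 3 of the allele pair lay within the parental means of 104 ± 17 (ey-Gal4) and 124 ± 51 (UAS-wge; SD, n = 3). nolo, a gene of a secreted ADAMTS-like protein, gave 60, 29.8 and 1.8 in the allele pair and 265, 279 and 259 in ey>wge (-2.84 ± 0.37, adjusted p = 0.000340), below parental means of 1281 ± 386 (ey-Gal4) and 1011 ± 156 (UAS-wge; SD, n = 3).

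Further genes among the 15 largest rises were mostly known by number alone. CG13029 measured 332, 870 and 829 in the allele pair, against 95.4, 110.5 and 110.6 in ey>wge (2.40 ± 0.32). CG12481 measured 592, 1059 and 854 in the allele pair, against 278, 236 and 128 in ey>wge (1.91 ± 0.38). CG33099 measured 149, 287 and 319 in the allele pair, against 55.6, 31.1 and 80.2 in ey>wge (1.90 ± 0.38). These 3 rose least in replicate 1, as did CG10581 (219, 569 and 448 in the allele pair, against 153, 163 and 72.4 in ey>wge, change 1.52 ± 0.35). The intraflagellar transport gene IFT54 measured 449, 196 and 244 in the allele pair, against 101, 96.7 and 64.8 in ey>wge (1.53 ± 0.37). CG7080 measured 203, 166 and 146 in the allele pair, against 57.9, 75.4 and 16.4 in ey>wge (1.63 ± 0.41), and CG13060 measured 280, 218 and 210 in the allele pair, against 43.1, 80.3 and 93.8 in ey>wge (1.55 ± 0.34). These 3 rose most in replicate 1. CG7768 measured 209, 262 and 154 in the allele pair, against 56.7, 38.2 and 53.5 in ey>wge (1.76 ± 0.38), and its second probe set did not pass (0.31 ± 0.46).

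Further falls among the 15 largest were mainly deeper in replicates 2 or 3. CG42788 measured 95.6, 2.1 and 28 in the allele pair, against 285, 228 and 241 in ey>wge (-2.58 ± 0.42). CG31676 measured 629, 287 and 138 in the allele pair, against 2062, 1431 and 2078 in ey>wge (-2.57 ± 0.33). The nocturnin homologue cu measured 1053, 295 and 271 in the allele pair, against 2066, 3449 and 2741 in ey>wge (-2.57 ± 0.63). The groups were separate for all of these, as for CG2269 (38.4, 53.5 and 3.3 in the allele pair, against 200, 139 and 209 in ey>wge, change -2.23 ± 0.40). The largest rise of any probe set belonged to one with no gene assigned here, with signals of 14389, 9361 and 15245 in the allele pair, against 238, 352 and 526 in ey>wge (5.10 ± 0.23, adjusted p = 1.4e-09).

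Of 20 ecdysone response genes 2 were higher and none lower, against 1.45% higher and 2.82% lower over all genes. ImpL1, an ecdysone-inducible gene of imaginal discs, had signals of 2222, 2197 and 627 in the allele pair, against 232, 308 and 376 in ey>wge (2.22 ± 0.42, adjusted p = 0.00702). The methionine sulfoxide reductase gene MsrA gave 802, 986 and 1063 in the allele pair and 559, 516 and 582 in ey>wge (0.76 ± 0.15, adjusted p = 0.0119). Replicate 3 was the lowest of its group for ImpL1 and the highest for MsrA.

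Genes of ecdysteroid synthesis were lower in the allele pair than in ey>wge, mainly in replicates 2 and 3. Most of them act in the prothoracic gland of the larval ring gland, and spok, phtm and sad are Halloween genes of this pathway. The list of 11 was put together after such genes had been seen among the largest falls, so its count is a description. All 11 changes were negative, though that of shd was near 0 (-0.01 ± 0.35). Of the 11 genes 6 passed as lower, when 2.82% of all genes did, and the list's median was -0.86, -2.66 and -3 in replicates 1, 2 and 3. Signals of spok were 2061, 112 and 194 in the allele pair, against 3068, 7044 and 3843 in ey>wge (-3.52 ± 0.77, adjusted p = 0.0176). The glutathione transferase GstE14 gave 153, 1.6 and 3.3 in the allele pair and 262, 582 and 316 in ey>wge (-3.30 ± 0.78, adjusted p = 0.0267). Parental means were 2244 ± 1005 (ey-Gal4) and 5634 ± 5286 (UAS-wge; SD, n = 3) for spok. For GstE14 they were 48.7 ± 14.3 (ey-Gal4) and 953 ± 1114 (UAS-wge), so these genes also varied widely within and between the parental lines. The phtm signals were 458, 105 and 155 in the allele pair and 1084, 1844 and 1240 in ey>wge (-2.68 ± 0.58, adjusted p = 0.0165), and sad changed by -2.65 ± 0.71 (adjusted p = 0.0492). The summed signal of the 11 genes was 8050, 3004 and 3142 in the allele pair and 11772, 20381 and 13036 in ey>wge, and how much ring gland came with the discs was not tested.

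Of 16 muscle genes 7 were lower and none higher, against 2.82% lower and 1.45% higher over all genes, with a median of -0.98, and -0.63, -1.15 and -0.87 in replicates 1, 2 and 3. The twitchin-like giant protein gene bt (bent) measured 836, 404 and 347 in the allele pair and 1564, 2004 and 1935 in ey>wge (-1.86 ± 0.29, adjusted p = 0.00197). Its parental means were 2489 ± 1229 (ey-Gal4) and 937 ± 141 (UAS-wge; SD, n = 3). The troponin T gene up measured 285, 118 and 313 in the allele pair and 710, 633 and 839 in ey>wge (-1.64 ± 0.35, adjusted p = 0.0152). Tropomyosin 2 (Tm2), at 632, 251 and 465 in the allele pair and 1108, 1039 and 1344 in ey>wge, changed by -1.43, and troponin C (TpnC73F), Mp20, Act87E and Mlc2 were the other members called, with changes of -1.01, -0.94, -0.84 and -1.65. In replicate 1 the changes of these 4 were -0.66, -0.74, -0.72 and -0.78.

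The whole list's summed signal was 6041, 3242 and 4666 in the allele pair and 9744, 10150 and 11525 in ey>wge. The myoblast genes on it, twi, zfh1 and Him, did not pass, and the fall of the list was smallest in replicate 1 (median -0.63). A further list of 10 sarcomere genes was chosen after such genes had been seen to fall, so its count is a description. It held 7 lower members, when 2.82% of all genes were lower, and had a median of -1.41. Its member Mf, the thick filament protein myofilin, had signals of 889, 436 and 635 in the allele pair, against 2008, 2577 and 2645 in ey>wge (-1.90 ± 0.24, adjusted p = 0.000305). With replicate 1 alone Mf (adjusted p = 0.0342) and the Z-disc gene Zasp66 (adjusted p = 0.0421) still passed. In the parental lines Zasp66 averaged 3185 ± 830 (ey-Gal4) and 911 ± 51 (UAS-wge; SD, n = 3), beside 801 ± 286 in the allele pair. Msp300, also called lower on this list, averaged 3418 ± 477 (ey-Gal4) and 3876 ± 66 (UAS-wge). How much muscle adhered to the discs and the part of strain background in these falls were not tested.

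Lists of other tissues gave few calls, to be read beside 1.45% higher and 2.82% lower over all genes. Of 9 glial genes moody, a receptor of the blood-brain barrier, was lower (350, 148 and 135 in the allele pair, against 620, 514 and 767 in ey>wge, change -1.62 ± 0.26, adjusted p = 0.00227), as was the glutamine synthetase Gs2 (546, 379 and 267 in the allele pair, against 743, 900 and 1534 in ey>wge, change -1.37 ± 0.25, adjusted p = 0.00552). Replicate 1 was the nearest to ey>wge for both. Of 17 hemocyte genes only the matrix protein Ppn was lower (2734, 1773 and 1474 in the allele pair, against 4242, 4295 and 3682 in ey>wge, change -1.07 ± 0.17, adjusted p = 0.00190), and the list's summed signal was 21484, 19557 and 20394 in the allele pair and 20133, 20921 and 20272 in ey>wge. The POU-domain gene vvl was lower among 7 tracheal genes (160, 67.3 and 45.1 in the allele pair, against 300, 491 and 281 in ey>wge, change -1.91 ± 0.38, adjusted p = 0.0106). Among 33 cuticle genes obst-B was higher, at 2836, 3371 and 3584 in the allele pair, against 1931, 1882 and 1562 in ey>wge (0.86 ± 0.14, adjusted p = 0.00262). TwdlG was the lower one (-1.38 ± 0.34, adjusted p = 0.0310), with a change of -0.55 in replicate 1 and -1.80 and -1.78 in replicates 2 and 3. Salivary gland genes had mean signals under 100 in both groups for all 9 members, and gut genes for all 12, and none of them was called.

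The odorant-binding protein gene Obp99a, on the list of 10 fat body genes, had signals of 10972, 12481 and 18663 in the allele pair, against 3124, 2892 and 3499 in ey>wge (2.11 ± 0.17, adjusted p = 1.3e-06). Its parental means were 1100 ± 180 (ey-Gal4) and 8359 ± 229 (UAS-wge; SD, n = 3). The other 9 genes of the list were not called, and their summed signal was 1698, 551 and 602 in the allele pair and 1016, 920 and 1078 in ey>wge. The storage protein gene Lsp2 read 432 in replicate 1 and 87.2 and 115 in replicates 2 and 3, beside 80.8, 101 and 115.8 in ey>wge. Obp99a was highest in replicate 3, where these other genes were low.

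Several lists gave 0 calls in both directions (limma), with the members at an unadjusted p under 0.05 in brackets: 20 cell cycle genes (6), 9 apoptosis genes (2), 10 Hedgehog pathway genes (4), 18 antimicrobial genes (1), 15 brain genes (3), 6 reference genes (2) and 10 heat shock genes (4). These are to be read beside 3408 of all 18769 probe sets at an unadjusted p under 0.05 in the same limma fit. All 10 heat shock changes were positive, with a median of 0.42. Hsp68, a stress-inducible chaperone, had signals of 3244, 23630 and 10075 in the allele pair, against 2349, 1247 and 2236 in ey>wge, and did not pass (2.28 ± 0.88, adjusted p = 0.166). Replicate 2 stood far above the others for it. Of 19 germline genes only Tektin-C was lower (2.82% of all genes were), and the other 18 summed to 671, 357 and 347 in the allele pair and 403, 262 and 426 in ey>wge.

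Housekeeping genes of 4 lists had small positive differences, mainly in replicates 2 and 3. Of 69 mitochondrial ribosomal protein genes 67 were positive and 4 passed as higher (1.45% of all genes did), with a median of 0.39, and -0.01, 0.40 and 0.70 in replicates 1, 2 and 3. Of 48 genes of the respiratory chain and ATP synthase 5 were higher (median 0.35), of 26 proteasome genes 3 (median 0.31), and of 30 cytosolic ribosomal protein genes 1 (median 0.30, all 30 positive). None of these lists held a lower member. ND-ACP, the acyl carrier subunit of complex I, had signals of 4254, 5461 and 6704 in the allele pair, against 3175, 3660 and 3113 in ey>wge (0.70 ± 0.14, adjusted p = 0.0106). The 4 lists consist of short genes, with median spans between 909 and 1378 bp, and without replicate 1 the mitochondrial ribosome had 41 higher members and the respiratory chain 31, when 7.06% of all genes were higher. In replicate 1 the medians of the respiratory chain, proteasome and cytosolic ribosome lists were 0.09, 0.12 and 0.12. The part of span in the shift of the 4 lists was not tested beyond the fit with its trend removed. In that fit the mitochondrial ribosome had 1 higher member and the respiratory chain had 7 (1.63% of all genes were higher). After quantile normalization the median of the cytosolic ribosome list was 0.02, so its shift depended on the scaling.

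**Figure D4:**
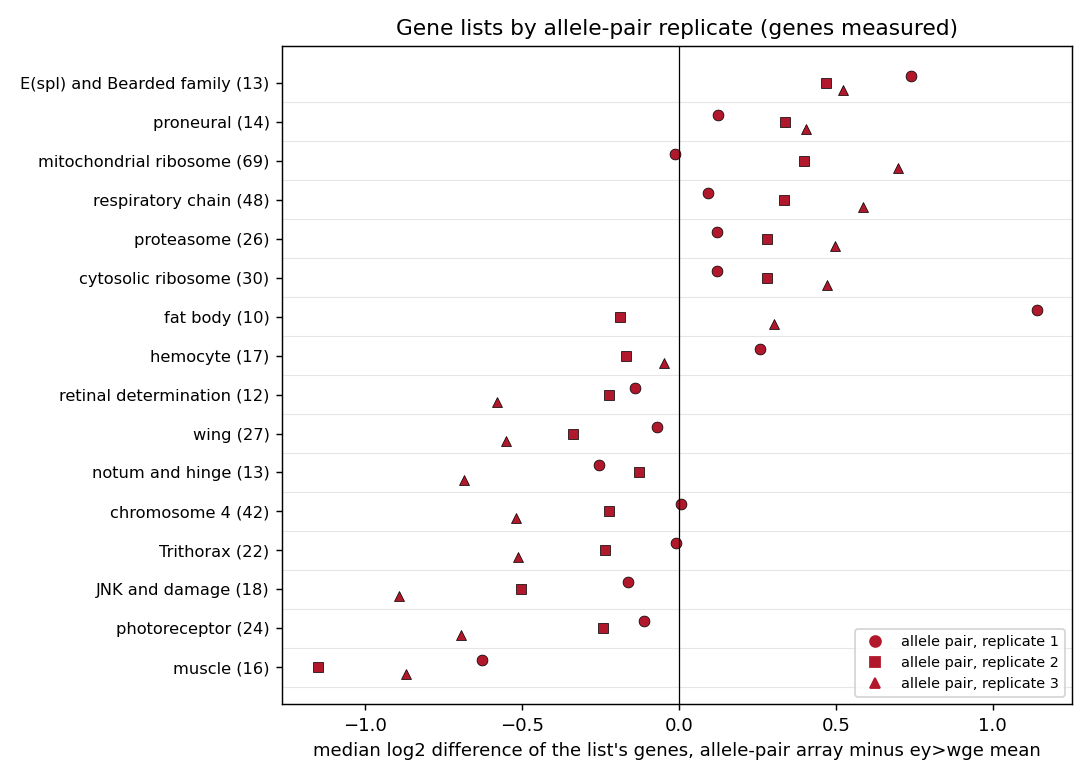
Median log2 difference from the ey>wge mean (horizontal axis) of the genes of 16 lists, with 1 symbol for each allele-pair replicate and the number of genes measured in brackets. The E(spl) and Bearded list lies at 0.74, 0.47 and 0.52 and the muscle list at -0.63, -1.15 and -0.87, while for the mitochondrial ribosome replicate 1 lies at -0.01.

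The trend on gene span ran through the calls as a whole. Probe sets called lower had a median span of 9100 bp and those called higher one of 1336 bp, beside 2569 bp for all 13544 with a span. When these were divided into 5 equal parts by span, 2.80% of the shortest and 0.517% of the longest were higher, and 0.480% of the shortest and 6.68% of the longest were lower. In the longest part the median difference from ey>wge was 0.00, -0.28 and -0.45 in replicates 1, 2 and 3, and in the shortest 0.03, 0.12 and 0.14. The ey>wge arrays differed from their own mean by at most 0.026 in each part.

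**Figure D5:**
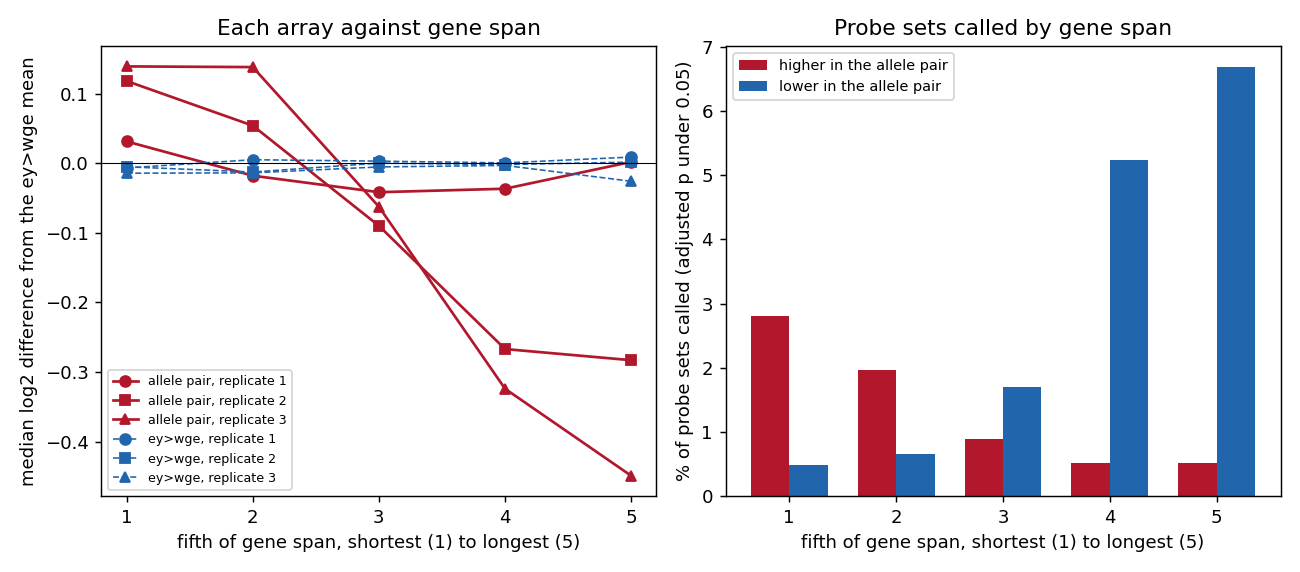
Left, median log2 difference of each allele-pair array (red) and each ey>wge array (blue, dashed) from the ey>wge mean, in 5 equal parts of gene span. Right, percent of probe sets called higher (red) and lower (blue) in the same parts. Replicates 2 and 3 fall with span and replicate 1 does not, and calls in the longest part are 6.68% lower and 0.517% higher.

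A smaller set of calls was shared by 4 fits. Of the 691 probe sets 67 also passed with replicate 1 as the lone allele-pair array, without replicate 1, and with the span trend removed, 17 of them higher and 50 lower. Those with replicate 1 alone numbered 141, of which 100 were among the 691. Other alternatives still removed some of these: without allele-pair replicate 2 cac had an adjusted p of 0.0826 and ImpL1 one of 0.0541. The 67 included Zip102B, Cadps, Rnf11, ImpL1, Obp99a, cac, the E(spl) genes m2, m3 and m7 among the higher, and nub, ap, Dr, chp, futsch, scaf, PMCA, Mf and Tektin-C among the lower. Another was stw, with signals of 405, 383 and 226 in the allele pair, against 1571, 1265 and 1320 in ey>wge (-2.02 ± 0.20, adjusted p = 1.7e-05), which was picked out after its values were seen and whose other probe sets lay near background. The lola gene, which encodes many isoforms of a transcription factor, had 1 probe set higher in all of these fits (596, 352 and 232 in the allele pair, against 157, 146 and 135 in ey>wge, change 1.24 ± 0.28), while others of its probe sets were lower.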

How the data were processed

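Gene expression was measured on 12 Affymetrix Drosophila arrays, 3 for each of 4 genotypes, from 100 ng of RNA after 2 rounds of cDNA synthesis, per the labels' protocols. The deposited values are linear signal intensities made by the authors with MAS5, per the submitters' processing notes. Each array's trimmed mean (2% off each end) was 500.01 or 500.02, so the arrays share a scaling that hides a change of total RNA. No sample column was left unused (0).

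The 183 control probe sets were left out. Over the other 18769, log2(signal + 16) was fitted with limma 3.58.1 (R 4.3.3; lmFit, then eBayes with a trend) over all 12 arrays with 1 mean per genotype, and p-values were Benjamini-Hochberg adjusted over all probe sets. Fold changes are on that scale and understate those of dim probe sets, SE is that of the fit, and the procedure was tested on simulated data. The number of arrays limits the precision. The labels number the replicates but do not say which were separate crosses, so p-values measure the spread between these arrays.

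Probe sets with 1 gene (13647; 402 had several and 4720 none) were named from the platform annotation, with symbols, spans and gene order from a RefSeq table. In a list the probe set of highest mean stands for a gene. Genes named were the 15 largest rises and falls with separate groups and a mean of at least 100 in the higher group, up to 4 members of each list by adjusted p, and members of the wing, Hox, E(spl) and heterochromatin lists. Members and lists were chosen with earlier results of these data known. Same-numbered arrays of both groups did not deviate together (correlations of -0.0152, -0.0107 and 0.011). Alternatives covered scaling, pseudocount, filters, variance prior, weights, arrays left out, the replicate block and the span trend. Su(var)3-9 and eIF2gamma were not analysed here. Figures were drawn with matplotlib 3.10.9.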

Additional observations from a re-analysis of the deposited data

How the results depend on the processing

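All 691 called probe sets kept their sign under each alternative in which they were fitted. They were chosen by this same comparison, and changes to the variance prior or to the parental arrays could not turn a sign. Their number depended on the arrays and the spread model. Changed, higher and lower probe sets numbered 1120, 398 and 722 with a filter at each array's 60th percentile, 177, 51 and 126 without a trend in the variance prior, 2862, 1080 and 1782 with array weights, and 100, 40 and 60 with only the 6 arrays compared. With replicate 1 as the lone allele-pair array, assumed to vary like the other groups, they numbered 141, 60 and 81. At an adjusted p under 0.01 they were 195, 53 and 142, and with a change of at least 1 (log2) 311, 66 and 245. With the span trend removed they were 478, 212 and 266. Leaving out single arrays gave 208 to 2640 changed, 63 to 998 higher and 142 to 1642 lower. Of these, the 2640, 998 and 1642 came without allele-pair replicate 1. With the replicate number as a block they were 789, 257 and 532, and the numbers did not pair the samples. Quantile normalization gave 531, 208 and 323, median centring 551, 198 and 353. The causes of these differences were not tested. Lower probe sets made up 68.5% of calls, 60.8% after quantile normalization and 64.1% after centring. Of 98 named probe sets, 74 no longer passed with replicate 1 alone, 58 without replicate 2, 47 without replicate 3 and 19 with the span trend removed, and 0 reversed. Dim probe sets limit what can be called, since MAS5 values near background vary most.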

Other observations

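Some probe sets outside the lists were picked out after their values were seen. PIG-Q and cass passed in the full comparison, with replicate 1 alone, without replicate 1 and with the span trend removed. PIG-Q, named for a step of GPI anchor synthesis, had signals of 777, 833 and 1019 in the allele pair, against 326, 339 and 360 in ey>wge (1.31 ± 0.17), with separate groups and little spread among replicates. The cass gene gave 4225, 4034 and 3955 in the allele pair and 9305, 7922 and 7748 in ey>wge (-1.02 ± 0.12), again alike in all 3 replicates. Parental means were 5212 ± 362 (ey-Gal4) and 12003 ± 1513 (UAS-wge; SD, n = 3) for cass, so it also differed between the parental lines. Those of PIG-Q were 498 ± 83 (ey-Gal4) and 431 ± 53 (UAS-wge). The part of strain background in the fall of cass was not tested. A probe set with no single gene assigned here measured 374, 147 and 94.5 in the allele pair and 2227, 3266 and 2265 in ey>wge (-3.74 ± 0.39), with parental means of 148 (ey-Gal4) and 4527 (UAS-wge).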
